A study of Mus musculus with 2 samples.

Results

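Ezh2, Eed, Suz12, Jarid2, Mtf2, Rnf2, Ring1, Kdm2b, Pcgf6 and Rybp encode subunits of the Polycomb repressive complexes. These 10 genes were chosen by name, and the peaks assigned to them were those of 2 CUT&RUN lists whose midpoint lay in a promoter window (1 kb upstream to 500 bp downstream of any annotated transcription start site, TSS), in the gene body, or within 20 kb of the gene. In the list made with a GFP antibody, 32 of 28718 peaks were assigned to these genes, and in the list made with a SRCAP antibody, 20 of 28167 were. Coordinates are on GRCm38 (mm10), with the GENCODE vM21 annotation of 21951 protein-coding genes.

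The lists map SRCAP, the catalytic subunit of the remodelling complex that exchanges histone H2A for H2A.Z. CUT&RUN directs a nuclease to an antibody and sequences the DNA cut out beside the bound protein. Both libraries came from SYAT cells, mESCs of the CGR8 line with YPet and an auxin-inducible degron fused to both Srcap alleles and with the auxin receptor OsTir1 stably expressed. The GFP antibody recognises the YPet part of the fusion, the SRCAP antibody recognises SRCAP itself, and each was used in 1 library of 100000 cells. The labels give no treatment for the single libraries, and the map is described in the study as one of control SYAT cells, which were kept with auxinole to limit degradation before auxin is given. The labels place both libraries under CUT&RUN, whereas the study's methods give the GFP antibody for CUT&Tag. There were no replicates, so no test could be made, and the lists hold no read counts, so depth is unknown. A peak absent from a list is therefore a place where no peak was called, not one shown to lack SRCAP. Peak lists carry no expression values, and the identity of the cells was not checked here.

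Polycomb group proteins act in 2 main complexes. PRC2 methylates lysine 27 of histone H3, through EZH2 with EED and SUZ12, while accessory subunits such as JARID2 and MTF2 bring it to chromatin. PRC1 ubiquitinates histone H2A through RING1B (the product of Rnf2) or RING1A (the product of Ring1), and its variant forms hold RYBP together with subunits such as KDM2B or PCGF6. In embryonic stem cells both complexes occupy the CpG-rich promoters of developmental genes, many of which also carry H2A.Z.

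At these 10 genes promoter peaks were found more often with the GFP antibody, though with scores below the list median left out each list kept 1 of the 10. With the GFP antibody, 6 of the 10 genes carried a promoter peak (Ezh2, Suz12, Jarid2, Rnf2, Kdm2b and Pcgf6), where 35.0% of all protein-coding genes had one. The SRCAP list had a promoter peak at 1 of the 10, Kdm2b, against a background of 35.6%. Kdm2b was also the only member with a promoter peak in both lists, against a background of 27%. At 5 of the genes the promoter peak was thus in the GFP list alone, which was the case for 7.98% of all protein-coding genes, and none had one in the SRCAP list alone, the case for 8.63%. With 10 genes these shares are loose: the 95% Wilson interval was 31.3 to 83.2% for 6 of 10 and 1.79 to 40.4% for 1 of 10, and genes are not replicates. Eed, Mtf2, Ring1 and Rybp carried no promoter peak in either list, which was the case for 12374 of all 21951 protein-coding genes.

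**Figure D1:**
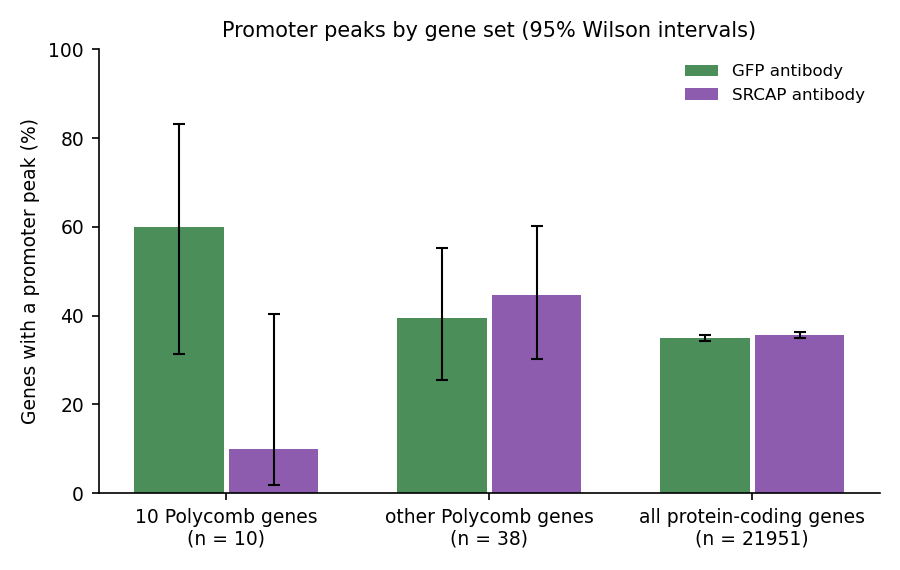
Percent of genes with a promoter peak (y axis, %) among the 10 Polycomb genes, 38 other Polycomb genes and all 21951 protein-coding genes, with the GFP antibody in green and the SRCAP antibody in purple. Bars start at 0 and error bars are 95% Wilson intervals, which cover counting error only. The antibodies gave 60.0% and 10.0% for the 10 genes, 39.5% and 44.7% for the other Polycomb genes, and 35.0% and 35.6% for all genes.

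All 3 core PRC2 genes lacked a SRCAP-antibody peak at the promoter and in the gene body, where 49.6% of all protein-coding genes had one. Ezh2, the methyltransferase (chromosome 6, 47530139 to 47595341, minus strand), had a GFP promoter peak of 544 bp centred 504 bp upstream of its TSS, with a score of 38. The deposited score is a whole number whose meaning is not given in the sources used here. In both lists its lowest value was 13 and its median 47. Of the GFP peaks, 34.8% scored lower than this one. Suz12, which holds the core together (chromosome 11, 79993106 to 80034123, plus strand), had a GFP promoter peak of 231 bp centred 549 bp upstream, with a score of 16 that only 0.498% of the list fell below. Eed, whose product binds the methylated H3 tail (chromosome 7, 89954654 to 89980983, minus strand), had no promoter peak but carried a GFP peak in an intron (89975625 to 89975985) that scored 80, above 79.6% of the list.

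None of these GFP peaks overlapped a SRCAP-antibody peak. The gap to the nearest one was 12.4 kb from the Ezh2 promoter peak, 72.1 kb from that of Suz12 and 22.2 kb from the Eed intron peak. Gaps were not computed over the whole list, so these have no background. Suz12 was the only one of the 10 genes with no SRCAP peak in the gene, the promoter or the 20 kb flanks, and its other GFP peaks were a pair upstream, of which the stronger, at 79979756 to 79980073, scored 49. Upstream of Ezh2 and Eed both antibodies did share a peak. At Ezh2 the lists overlapped by 43 bp about 13 kb upstream, with low scores of 24 (GFP) and 29 (SRCAP). At Eed they overlapped by 296 bp about 17 kb upstream, where the GFP peak scored 114, above 90.1% of its list, and the SRCAP peak 40, above 38%.

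**Figure D2:**
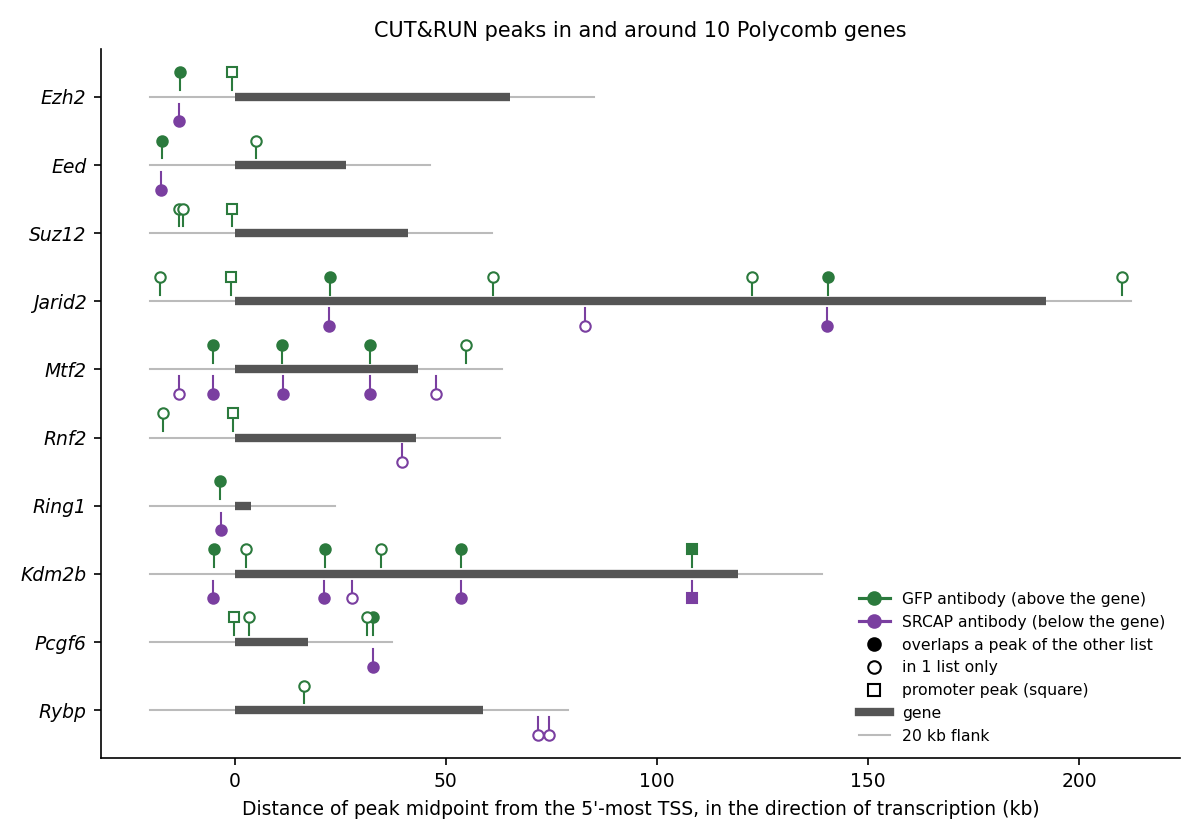
Midpoints of the 32 GFP peaks (green, above each gene) and 20 SRCAP peaks (purple, below) along the 10 genes, in kb from the 5′-most TSS in the direction of transcription. Thick bars are genes, thin lines 20 kb flanks, filled symbols peaks that overlap a peak of the other list, and squares promoter peaks. The squares at the starts of Ezh2, Suz12, Jarid2, Rnf2 and Pcgf6 are open and have no SRCAP peak below them, and the shared peaks lie within introns and flanks and at an internal Kdm2b TSS.

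The PRC2 accessory genes had intronic peaks with both antibodies, which coincided in full at Mtf2 and in part at Jarid2. Jarid2, a nucleosome-binding cofactor (chromosome 13, 44729474 to 44921643, plus strand), had a GFP promoter peak of 380 bp with a score of 77, the one member promoter peak of that list at or above its median. The peak was centred 790 bp upstream of the 5′-most TSS, which belongs to a processed transcript, and 851 bp upstream of the nearest TSS of a protein-coding transcript. The nearest SRCAP peak was 22.6 kb away, upstream and outside the 20 kb flank. Inside Jarid2 the GFP list had 4 intronic peaks and the SRCAP list 3, and 2 of them coincided. At 44751797 to 44752113 the overlapping peaks scored 95 (GFP) and 45 (SRCAP). At 44869575 to 44870011, in an intron 140 kb into the gene, they scored 374 and 579, above 99.4% and 99.7% of their lists, which made this the strongest site of the 10 genes in both lists. Of the remaining Jarid2 peaks, all in 1 list only, those given by position scored 30 and 14 in GFP-only introns (44790477 to 44790652 and 44851923 to 44852096), 68 in a SRCAP-only intron (44812468 to 44812643), and 48 with the GFP antibody at 44939335 to 44939821, beyond the 3′ end.

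Mtf2, a Polycomb-like protein that binds unmethylated CpG DNA (chromosome 5, 108065674 to 108109004, plus strand), was the gene on which the antibodies coincided most after Kdm2b. Both of its intronic peaks were in both lists. The first, common to both over 297 bp at 108077003 to 108077299, scored 92 with the GFP antibody, above 84.3% of that list, and 52 with the SRCAP antibody, above 55.0%. The second, at 108097647 to 108097855, scored 40 and 48. Another shared peak lay 5.1 kb upstream of the gene, at 108060501 to 108060725, with scores of 74 and 40. The first intronic pair also fell just outside the promoter threshold, with midpoints 1337 bp (GFP) and 1014 bp (SRCAP) upstream of the TSS of a processed transcript within the gene, while the farthest member peak just inside it was that of Jarid2 at 790 bp. Counting any overlap with the window as a promoter peak added Mtf2 in both lists and gave 7, 2 and 2 genes for GFP, SRCAP and both, where 36.2%, 36.5% and 27.9% of all genes had one.

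Of the E3 ligase genes of PRC1, Rnf2 had 2 GFP peaks and 1 SRCAP peak, and Ring1 had 1 peak in each list. Rnf2 (chromosome 1, 151458004 to 151500955, minus strand) had a GFP promoter peak of 332 bp centred 261 bp upstream of a coding TSS with a score of 23, above 8.37% of the list, and the nearest SRCAP peak was 39.6 kb away. Within Rnf2 the SRCAP list placed 1 intronic peak, at 151461244 to 151461436, whose score of 18 was close to the lowest possible. Ring1, the shortest of the 10 genes at 3.89 kb (chromosome 17, 34020792 to 34024680, minus strand), had no peak in the gene. Its only peak in either list was a shared one upstream, at 34027872 to 34028117, with scores of 53 (GFP) and 62 (SRCAP). Its midpoints lay 3518 and 3315 bp upstream of the Ring1 TSS but in the promoter window of H2-Ke6, a hydroxysteroid dehydrogenase gene, so this peak lies at the promoter of another gene.

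Of the variant PRC1 genes, Kdm2b had the most peaks. It was also the longest of them, at 119 kb against 17.3 kb for Pcgf6 and 58.9 kb for Rybp. Its 19 annotated TSS positions compare with 4 and 3, in that order. KDM2B binds unmethylated CpG DNA and recruits a variant PRC1 to it (chromosome 5, 122870665 to 122989823, minus strand). There were 6 GFP peaks there and 5 SRCAP peaks, of which 4 coincided, more than at any of the other genes. The promoter pair lay over the 170 bp common to both at 122881329 to 122881498, and scored 31 with the GFP antibody, above 21.5% of its list, and 67 with the SRCAP antibody, above 68.7%. This is not the start of the gene: the TSS concerned, at position 122881085, is that of a transcript with a retained intron, the peaks lie in an intron 108 kb downstream of the 5′-most TSS, and the nearest TSS of a protein-coding transcript was 7070 bp (GFP) and 7167 bp (SRCAP) away. With TSSs of protein-coding transcripts alone, the SRCAP list therefore had a promoter peak at 0 of the 10 genes (33.8% of all genes) and both lists together at 0 (25.4%), while the GFP list kept 5 (33.1%). With only the 5′-most TSS of each gene, an alternative added once the values were known, the counts were also 5, 0 and 0. The other coincident Kdm2b sites were intronic at 122936059 to 122936237 (66 and 34) and at 122968408 to 122968631 (45 and 71), where the first score is that of the GFP peak and the second that of the SRCAP peak, and upstream of the gene at 122994542 to 122995146 (95 and 72). GFP-only introns held peaks at 122955079 to 122955423 (score 58) and 122987023 to 122987195 (score 18), and a SRCAP-only intron held one at 122961939 to 122962132 (score 89).

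Pcgf6, the PCGF subunit of the variant complex named PRC1.6 (chromosome 19, 47033617 to 47050906, minus strand), had a GFP promoter peak of 222 bp centred 195 bp upstream of its 5′-most TSS, with a score of 45. This was the member peak nearest to a TSS, and the nearest SRCAP peak was 32.6 kb away. An intronic GFP peak at 47047410 to 47047753 scored 53. Beyond the 3′ end of Pcgf6 both lists had a peak at 47017865 to 47018359, with scores of 63 (GFP) and 42 (SRCAP). Rybp, a subunit of variant PRC1 that takes the place of CBX proteins (chromosome 6, 100228565 to 100287485, minus strand), had 1 GFP peak in an intron (100271031 to 100271220, score 32). None of its peaks was shared, the SRCAP list holding a pair beyond the 3′ end. The flank peaks not described so far, 5 with the GFP and 4 with the SRCAP antibody, were unshared and scored below 47. Some flank peaks lay within other annotated genes. Among them were the shared flank peaks of Eed, Ring1, Kdm2b and Pcgf6, and the peaks beyond the 3′ ends of Jarid2 and Mtf2.

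The 6 GFP promoter peaks lay well upstream. Their midpoints were 195 to 790 bp from the TSS, with a median of -464.5 bp, whereas over the 7683 protein-coding genes with a GFP promoter peak the median was -118 bp (interquartile range -249 to 13 bp). Of those genes, 34.4% had their peak at or beyond the 195 bp of Pcgf6, the nearest member. The 6 peaks were also weak. Of the 6, 5 scored below the list median of 47, with a range of 16 to 77, where 3680 of all 8718 GFP promoter peaks did. Raising the threshold to the median score left 1 of the 10 genes with a GFP promoter peak (Jarid2, 22.2% of all genes), 1 with a SRCAP promoter peak (Kdm2b, 23.5%) and none with both (16.0%).

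**Figure D3:**
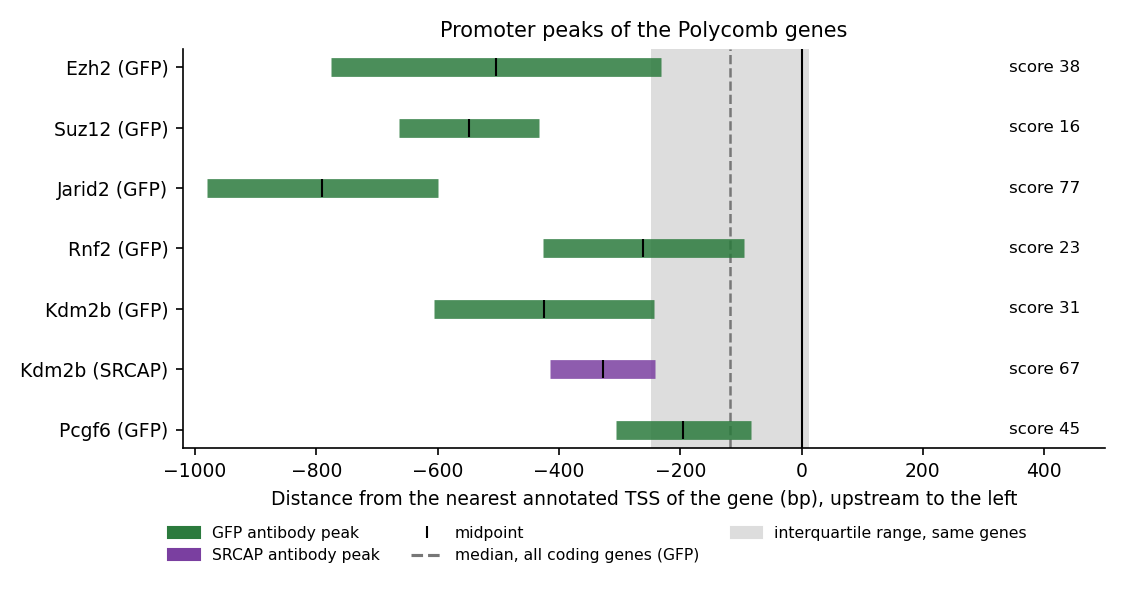
The 6 GFP (green) and 1 SRCAP (purple) promoter peaks of the Polycomb genes, drawn to scale against the nearest annotated TSS (x axis, bp, upstream to the left), with each midpoint as a tick and the score at the right. The dashed line and the grey band are the median (-118 bp) and interquartile range of the midpoints over all 7683 protein-coding genes with a GFP promoter peak. All midpoints lie upstream of the TSS, from 195 to 790 bp, and those of 5 of the 6 GFP peaks lie beyond the band.

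The 5 promoter peaks seen with the GFP antibody alone are printed because the difference between the lists turns on them. They are given on the strand of the gene, up to 300 bases from the middle of the peak, with each CpG in capitals, from the GRCm38 assembly, and this set was chosen after the values were seen.
Ezh2 promoter, GFP peak, chr6:47595695-47595994, minus strand: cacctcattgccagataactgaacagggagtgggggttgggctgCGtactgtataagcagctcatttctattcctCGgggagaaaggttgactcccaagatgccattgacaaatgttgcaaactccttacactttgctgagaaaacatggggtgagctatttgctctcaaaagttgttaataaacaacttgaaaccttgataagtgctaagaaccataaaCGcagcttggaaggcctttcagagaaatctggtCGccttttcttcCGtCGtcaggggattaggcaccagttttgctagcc
Suz12 promoter, GFP peak, chr11:79992442-79992672, plus strand: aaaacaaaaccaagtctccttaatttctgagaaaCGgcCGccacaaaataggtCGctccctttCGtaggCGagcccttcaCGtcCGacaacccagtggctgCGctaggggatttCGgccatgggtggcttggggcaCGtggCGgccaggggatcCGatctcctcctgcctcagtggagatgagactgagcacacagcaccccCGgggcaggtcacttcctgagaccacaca
Jarid2 promoter, GFP peak, chr13:44728534-44728833, plus strand: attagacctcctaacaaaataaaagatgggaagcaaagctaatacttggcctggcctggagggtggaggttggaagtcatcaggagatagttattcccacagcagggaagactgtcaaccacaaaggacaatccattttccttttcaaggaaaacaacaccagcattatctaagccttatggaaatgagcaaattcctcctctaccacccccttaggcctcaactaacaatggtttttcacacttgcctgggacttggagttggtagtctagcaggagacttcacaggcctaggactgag
Rnf2 promoter, GFP peak, chr1:151501066-151501365, minus strand: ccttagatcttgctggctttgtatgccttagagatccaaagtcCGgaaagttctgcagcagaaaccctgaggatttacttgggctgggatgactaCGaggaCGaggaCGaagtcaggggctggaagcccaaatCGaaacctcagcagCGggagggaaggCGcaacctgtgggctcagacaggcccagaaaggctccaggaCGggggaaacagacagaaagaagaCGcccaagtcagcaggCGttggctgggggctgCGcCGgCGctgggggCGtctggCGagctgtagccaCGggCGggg
Pcgf6 promoter, GFP peak, chr19:47050990-47051211, minus strand: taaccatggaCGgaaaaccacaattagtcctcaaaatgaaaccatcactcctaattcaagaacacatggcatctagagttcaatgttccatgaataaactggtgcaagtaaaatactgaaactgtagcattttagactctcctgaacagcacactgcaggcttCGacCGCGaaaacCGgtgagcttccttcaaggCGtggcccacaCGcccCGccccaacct
These stretches hold 6, 13, 0, 17 and 8 CpGs, in that order, so the Jarid2 peak, which scored highest, lay in sequence with none. In 300 bp at the peak midpoints the observed over expected CpG ratio ran from 0 (Jarid2) over 0.385 (Ezh2) to 0.694 (Suz12). The SP and KLF consensus CCCGCCC was in the Rnf2 and Pcgf6 windows, 2 of the 6 GFP promoter peaks of the members (33.3%). Over all 8718 GFP promoter peaks it was in 26.1%. The NFY consensus CCAAT was in the Kdm2b window only (16.7%), against 42.6% over all.

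TSS-proximal promoters of the members had a higher median CpG ratio than the GFP promoter peaks of the members. RefSeq promoters on GRCm38, 250 bases before to 50 after each start, were matched for 9 of the 10 genes, all but Rybp, and gave 14 promoters. Their CpG ratio had a median of 0.905, against 0.567 over 21263 promoters of protein-coding genes, and their GC content a median of 64.0% against 56.3%. Over the 6 GFP promoter peaks of the members the median CpG ratio was 0.463 and the median GC content 52.7%, against 0.573 and 55.0% over all 8718 GFP promoter peaks. The promoter and peak medians of the members cover different genes. Eed, Mtf2 and Ring1 had matched promoters but no promoter peak, and the Kdm2b promoter peak lay at an internal TSS. Each of the 9 matched genes had a promoter with a ratio of at least 0.6. Of the 8645 protein-coding genes for which this held, 53.6% had a GFP promoter peak and 54.7% a SRCAP promoter peak. Over all genes these shares were 35.0% and 35.6%. Among the 9 matched members, 6 had a GFP promoter peak and 1 (Kdm2b) a SRCAP promoter peak. With TSSs of protein-coding transcripts alone, the shares of the 8645 genes were 51.3% and 52.7%, and the member counts were 5 and 0. The 0.6 limit was chosen after the values were seen.

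Short consensus sequences were searched on both strands. In the 14 RefSeq promoters, of which 2 are Kdm2b windows that overlap nearly in full and hold the same matches, the NFY consensus CCAAT was found in 8 (57.1%, against 38.2% of all promoters) and the SP and KLF consensus in 7 (50.0% against 33.9%), and neither ETS (CCGGAAGT), NRF1 (GCGCATGCG), YY1 (AAGATGGCG) nor E2F (TTCCCGCC) had a match, where 5.15%, 2.35%, 1.83% and 2.85% of all promoters held them. These are matches of letters, not binding sites.

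At Kdm2b, bases common to both antibodies are printed for the promoter pair, the one place where a member promoter peak was in both lists, and for an intron that resembled it. Capitals mark a match to the core of the CTCF consensus, a motif added after the sequences were seen and searched on both strands.
Kdm2b promoter, both antibodies, chr5:122881329-122881498, minus strand: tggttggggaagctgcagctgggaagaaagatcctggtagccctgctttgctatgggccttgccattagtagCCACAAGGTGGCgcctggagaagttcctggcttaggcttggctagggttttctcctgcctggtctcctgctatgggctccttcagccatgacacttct
Kdm2b intron, both antibodies, chr5:122968408-122968631, minus strand: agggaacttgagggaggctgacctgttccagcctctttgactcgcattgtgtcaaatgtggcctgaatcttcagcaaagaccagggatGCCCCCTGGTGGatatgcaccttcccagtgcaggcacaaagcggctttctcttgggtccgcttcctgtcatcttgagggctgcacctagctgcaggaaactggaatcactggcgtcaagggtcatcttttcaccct
CTCF is a zinc finger protein that marks insulators and loop anchors. In 300 bp windows its core was found in 2.33% of GFP and 2.61% of SRCAP promoter peaks, and in 6.43% and 8.58% of the peaks outside promoters. Among the members it was also in the window of the GFP peak beyond the 3′ end of Mtf2 (108120412 to 108120651, score 40), which was not shared.

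The strongest site, in the Jarid2 intron, had the highest CpG ratio of the member peaks in both lists. The middle 300 bases of the stretch common to both antibodies are printed with each CpG in capitals, on the strand of Jarid2.
Jarid2 intron, both antibodies, chr13:44869644-44869943, plus strand: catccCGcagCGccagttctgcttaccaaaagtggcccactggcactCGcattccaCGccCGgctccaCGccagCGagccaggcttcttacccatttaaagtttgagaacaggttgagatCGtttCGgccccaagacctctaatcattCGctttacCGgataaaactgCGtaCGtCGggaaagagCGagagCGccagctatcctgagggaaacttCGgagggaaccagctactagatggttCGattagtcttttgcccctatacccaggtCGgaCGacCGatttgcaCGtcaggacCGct
It holds 23 CpGs, none of it is repeat-masked, and its CpG ratio of 1.02 was above that of 99.9% of the SRCAP peaks outside promoters. Aligned to the assembly, a search added after the sequences were seen, its 437 common bases had 16 further copies of at least 90% identity over at least 50% of the length, with identities of 90.9 to 98.9%. Of these copies, 5 carried a GFP peak, with scores of 14 to 1257, and 3 carried a SRCAP peak, with scores of 790 to 1705, and these 3 were in both lists. By background knowledge the letters are those of a stretch of 28S ribosomal RNA read on the opposite strand. The annotation names no ribosomal RNA gene at this place, and no alignment to a full ribosomal RNA unit was made. How reads that match several of these places were treated cannot be read from a peak list. Of the other 17 member regions searched in this way, 1 had further copies: the shared peak upstream of Mtf2, with 11, none of which carried a peak.

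Over all member peaks, 13 sites were in both lists. Among them were the strongest Jarid2 intron site and the site upstream of Mtf2, which have further copies in the assembly. The 13 sites were 40.6% of the 32 GFP peaks (95% Wilson interval 25.5 to 57.7), where 56.2% of the whole list was shared. They were 65.0% of the 20 SRCAP peaks (43.3 to 81.9), where 57.7% was. The intervals hold both whole-list values. By location, 1 of 6 GFP promoter peaks was shared (16.7%, 3.01 to 56.4), against 67.5% of all GFP promoter peaks. The 5 unshared ones are the GFP-only promoter peaks already counted above. Among GFP promoter peaks that scored below the list median, as 5 of the 6 member ones did, 45.8% were shared. The 67.5% lies above the interval and the 45.8% within it, but peaks are not replicates and no test was made. In gene bodies and in flanks 6 of 13 GFP peaks each were shared (46.2%), against 51.3% of the list outside promoters. All 13 GFP and all 9 SRCAP gene-body peaks were intronic. The intronic share of gene-body peaks over the whole lists was not computed, so nothing is read from this count.

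Across the 13 shared sites neither antibody ranked higher throughout. The GFP peak held the higher rank within its list at 7 and the SRCAP peak at 6. The gap was widest at Eed upstream (90.1% of the list lower for GFP, 38% for SRCAP), the Kdm2b promoter (21.5% and 68.7%) and the Kdm2b intron at 122936059 (70.4% and 28.0%).

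**Figure D4:**
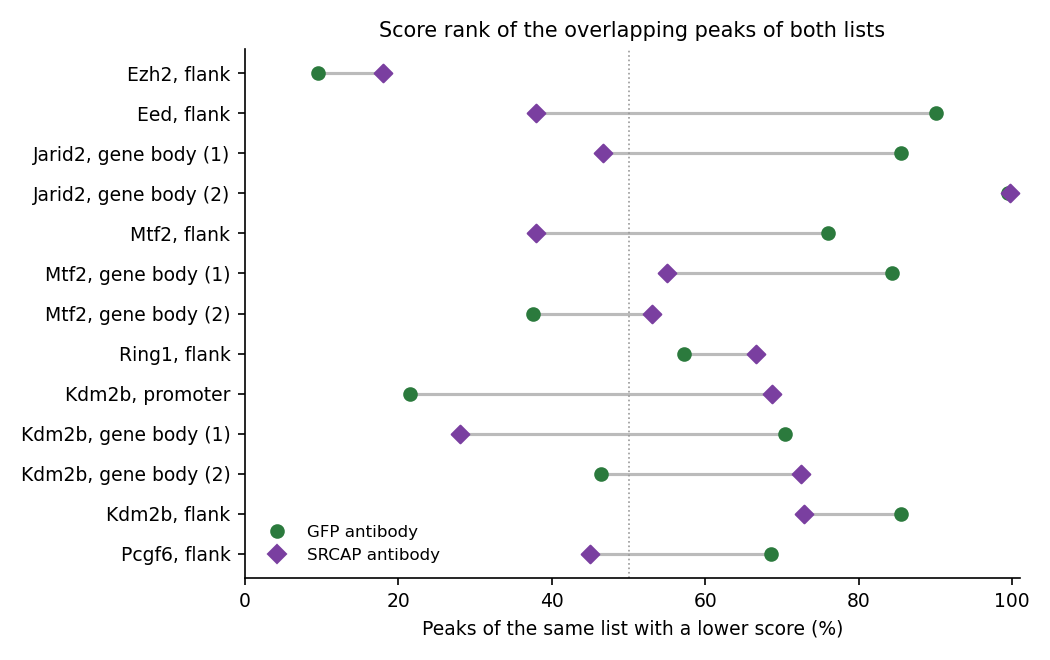
Score rank of the 13 sites found with both antibodies, as the percent of peaks of the same list with a lower score (x axis), for the GFP peak (green circle) and the SRCAP peak (purple diamond), joined by a line. The dotted line is 50%. The strongest Jarid2 intron pair, at a site with further copies in the assembly, lies above 99% in both lists. At 7 of the 13 sites the GFP peak ranks higher.

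Counted over gene, promoter and 20 kb flanks, 10 of the 10 genes had a GFP peak (69.7% of all genes) and 9 had a SRCAP peak (70.4%). Long genes hold more peaks, and the 10 genes had a median length of 43.1 kb against 17.4 kb over all. Per 100 kb of locus the members had 3.17 GFP and 1.98 SRCAP peaks, against 2.07 and 1.99 over all protein-coding genes. The 10 genes also have 3 or more TSS positions each, and among the 13048 genes of that kind 46.4% had a GFP and 47.1% a SRCAP promoter peak.

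Among the other Polycomb genes, the counts of promoter peaks with each antibody were close. Of 38 further genes for PRC2, PRC1, the H2A deubiquitinase complex PR-DUB and the H3K27 demethylases, 15 had a GFP promoter peak (39.5%, 25.6 to 55.3) and 17 a SRCAP promoter peak (44.7%, 30.1 to 60.3), with 10 in both, 5 in the GFP list alone and 7 in the SRCAP list alone. Whether this differs from the 6 and 1 of 10 was not tested, and for each antibody the Wilson intervals of both gene sets overlap. The 10 with a promoter peak in both lists were Phf1 and Phf19 (PRC2 accessory subunits), Cbx7 and Phc1 (canonical PRC1), L3mbtl2, Mga, Auts2 and Fbrsl1 (variant PRC1), and Foxk2 and Mbd5 (PR-DUB). The strongest were Fbrsl1, with scores of 163 (GFP) and 266 (SRCAP), and Phf19, with 200 and 221, all above 95% of their lists. The Phf19 peaks were at the TSS of a transcript that is not protein-coding. L3MBTL2 and MGA belong to the same variant complex as PCGF6, and their genes had GFP scores of 72 and 39 and SRCAP scores of 30 and 94, where the Pcgf6 promoter peak was a GFP one only. Those with none in either list, 16 in all, included Rbbp7, Aebp2, Epop, Lcor, Phc2, Bmi1, Pcgf5, Bcor, Bcorl1, E2f6, Bap1, Asxl1, Asxl2, Kdm6a and Kdm6b. By role, the GFP and SRCAP counts were 3 and 3 of 8 for PRC2, 4 and 5 of 10 for canonical PRC1, 5 and 6 of 11 for variant PRC1, 3 and 3 of 7 for PR-DUB and 0 and 0 of 2 for the demethylases.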

How the data were processed

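SRCAP was mapped in SYAT mESCs by CUT&RUN, with 1 library per antibody (0.1% formaldehyde for 5 min, antibody diluted 50-fold, inserts of 250 bp, paired reads of 75 nt). The authors deposited 1 list of MACS2 peaks per library with a score per peak. Their processing notes name STAR, Picard and MACS2, and the builds mm10 and dm6. For ChIP-seq and CUT&Tag the study describes keeping uniquely mapped reads, leaving out blacklisted regions and, for ChIP-seq, calling against an input. Whether this held for these lists, and the meaning of the score, are not given in the sources used here, so peaks over repeats or multi-copy sequence may be listed. All other values were computed here.

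Overlap of at least 1 bp was called shared (checked with bedtools 2.31.1). Windows came from 141767 GENCODE vM21 transcripts. GC content, CpG ratio and motifs were read in 300 bp at each midpoint (pysam 0.24.0), and copies were sought with BLAST 2.17.0. Intervals are 95% Wilson intervals (scipy 1.17.1) and cover counting error only. The counting steps were tested on simulated data. No test was made. All 10 genes are named with each promoter and gene-body peak, flank peaks by position when shared or at or above the median score, neighbouring genes when a named peak lies in their promoter window, and other Polycomb genes when both lists or neither had a promoter peak, except an item that is not reported here. The genes, the list of 38 other Polycomb genes and the alternatives were chosen with earlier results of these data known.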

Additional observations from a re-analysis of the deposited data

How the results depend on the processing

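No paired analysis was possible because there was a single library for each antibody. Of 31 values recomputed, 16 stayed close to the value reported (counts within 1.5 times of it, shares within its counting interval) and 15 moved. Keeping only peaks at or above the median score gave 1 gene with a GFP promoter peak, 0 with both and 4 with a SRCAP peak in the locus (54.0% of all genes), by removing peaks. Promoter windows of 2500 bp either side, or any overlap with the window, added Mtf2 and gave 2 genes for SRCAP and 2 for both (41.9% and 32.6% of all genes in the wider window). TSSs of protein-coding transcripts only, or the 5′-most TSS only (added after seeing the data), dropped Kdm2b and gave 0 for SRCAP and 0 for both. SRCAP peaks in the locus covered 5 genes with flanks of 10 kb (63.1% of all genes) and 4 with no flank (49.6%). A reciprocal overlap of at least 50% gave 25% of GFP and 40% of SRCAP member peaks shared. A GFP promoter peak was more frequent among the members than a SRCAP one in each promoter setting except the median score, where both were 1. Depth is unknown, the 10 genes are few and not replicates, and whether the antibodies differ at them was not tested.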
